A study of Mus musculus with 8 samples.

Results

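The cyclic AMP signalling machinery was followed here as 42 genes taken by symbol from 6 functional groups. These were 9 adenylyl cyclases, 14 cAMP phosphodiesterases, 6 subunits of protein kinase A (PKA), 5 G protein alpha subunits, 2 Epac exchange factors and 6 CREB factors and coactivators. All 42 were among the 31406 genes listed for the 8 libraries, and 41 passed the filter on low counts, Pde4c being the exception. The libraries were made from primary wild-type cultures of mouse microglia, macrophages that reside in brain tissue. The methods of the study name the striatum of C57/BL6 pups a few days old as their source.

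Every culture was grown for 15 days, and interferon-γ and lipopolysaccharide (LPS) then activated the cells over 48 h. The cultures were given ligand at 24, 32 and 40 h after activation began. In the A2A antagonist group (n = 4), the cells received SCH 58261, an antagonist of the adenosine A2A receptor. In the dual group (n = 4), they received SCH 58261 together with 200 nM 2-Cl-IB-MECA, which activates the adenosine A3 receptor. These groups are those of the sample titles, whereas the treatment field of the labels places 2-Cl-IB-MECA in the libraries titled with SCH 58261 alone, so which group a difference favours rests on the titles and the matching names of the deposited count columns. The methods of the study name a human interferon-γ, a limit of the activation model in mouse cells. Neither the labels nor the methods tie a library to a litter or a separate culture, so the p-values measure the spread between these libraries, which may be technical.

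Total counts were 38427491 to 45878639 in the libraries of the A2A antagonist group and 32630602 to 45544451 in those of the dual group. Counts were scaled to CPM (counts per 1000000 counts) with TMM factors, which correct for the composition of each library. The 12 microglial markers, among them Cx3cr1, Csf1r and C1qa, summed to 1432 to 1534 CPM with the antagonist and 1364 to 1448 CPM in the dual group. The 10 astrocyte markers, such as Gfap and Aqp4, summed to 6318 to 6866 CPM, and the 10 fibroblast markers, such as Col1a1 and Dcn, to 2760 to 3494 CPM. No marker of these lists was at 0 in a group mean. The libraries thus held RNA of astrocyte and fibroblast genes beside that of microglia. The methods of the study report a high purity of microglia by labelling of CD11b, a measure taken on cells and not on RNA. From bulk RNA fewer cells of a type and less RNA per cell cannot be told apart, so the levels below belong to the cultures as a whole.

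Cyclic AMP (cAMP) is made from ATP by adenylyl cyclases, which the Gs alpha subunit stimulates and the Gi alpha subunits inhibit, and it is broken down by phosphodiesterases. It releases the catalytic subunits of PKA from the regulatory ones, it activates the Epac proteins, which switch on the small GTPase Rap, and through PKA it leads to phosphorylation of CREB, which binds the cAMP response element (CRE) of its target genes together with CRTC coactivators. The A2A receptor couples to Gs and raises cAMP, whereas the A3 receptor couples to Gi and lowers it, and in microglia a rise in cAMP is known to restrain inflammatory gene expression.

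The letters of the CRE were looked up in the promoters of the members, because it is the element that CREB binds. RefSeq (GRCm38.p6) gave 70 promoter windows for 34 members, each with 250 bases before a transcription start and 50 after it. The full palindrome TGACGTCA was found for 1 of the 34 members, Prkar1a (2.94%), against 2.03% of all 27025 genes with such a window. The shorter hexamer TGACGT, read on both strands and contained in the full element, was found for 5 of 34 members (14.7%) against 8.37% of all genes. Members had more windows per gene, and counted by window the hexamer was in 6 of 70 (8.57%) against 7.51% of all 32851 windows, a share close to the background. The 5 members were Adcy9, Pde4a, Pde4b, Prkar1a and Rapgef3. A match is a description of the letters and not a binding site. The windows below belong to the PKA subunit, phosphodiesterase and Epac gene with the highest level per kb, with the matched letters in capitals, and to Pde7b, the member with the largest ratio against the control, in which neither motif was found. The matches of Prkar1a, Pde4b and Rapgef3 began 49, 35 and 191 bases before the start, and the 4 windows lay at chr11:109650699-109650998 (plus strand), chr4:102421305-102421604 (plus strand), chr15:97767617-97767916 (minus strand) and chr10:20548279-20548578 (minus strand).
Prkar1a: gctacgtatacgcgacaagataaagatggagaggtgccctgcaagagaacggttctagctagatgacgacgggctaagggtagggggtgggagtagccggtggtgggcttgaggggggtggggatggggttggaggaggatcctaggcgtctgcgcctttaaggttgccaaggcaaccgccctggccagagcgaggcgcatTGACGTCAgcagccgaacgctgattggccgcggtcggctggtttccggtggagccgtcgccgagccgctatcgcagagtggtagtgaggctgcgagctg
Pde4b: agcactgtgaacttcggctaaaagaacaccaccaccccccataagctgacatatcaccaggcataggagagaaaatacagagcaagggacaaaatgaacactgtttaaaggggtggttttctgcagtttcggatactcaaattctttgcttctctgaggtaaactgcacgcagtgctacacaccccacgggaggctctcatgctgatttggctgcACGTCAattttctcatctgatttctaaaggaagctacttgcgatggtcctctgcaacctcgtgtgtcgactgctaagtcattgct
Rapgef3: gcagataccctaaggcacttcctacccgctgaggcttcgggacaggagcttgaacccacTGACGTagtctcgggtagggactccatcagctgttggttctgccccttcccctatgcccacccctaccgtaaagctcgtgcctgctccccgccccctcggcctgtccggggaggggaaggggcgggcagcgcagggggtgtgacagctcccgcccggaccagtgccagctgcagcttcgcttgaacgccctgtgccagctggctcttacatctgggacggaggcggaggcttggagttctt
Pde7b: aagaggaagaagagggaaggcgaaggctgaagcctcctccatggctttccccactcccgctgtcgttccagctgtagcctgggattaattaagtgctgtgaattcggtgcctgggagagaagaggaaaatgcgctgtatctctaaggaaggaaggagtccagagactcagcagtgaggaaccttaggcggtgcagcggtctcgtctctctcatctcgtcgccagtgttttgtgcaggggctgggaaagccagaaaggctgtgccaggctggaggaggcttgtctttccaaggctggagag
Prkar1a had 6 windows, of which 2 overlapping ones held the element, Pde4b had 4 and the other two genes 1 each.

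The level of each gene was compared with that of other genes per kilobase (kb) of the gene length given in the deposited table. This length joins the exons of all transcripts, so a gene with long alternative exons, such as Gnas with 11186 bases, reads lower than its main transcript would. Among the alpha subunits, Gnai2, a Gi subunit, had the highest level of all 42 members at 233 CPM per kb (mean of 8 libraries). It was followed by Gnai3, a second Gi subunit, at 45.2, Gnao1, the Go subunit, at 18.2, Gnas, the Gs subunit, at 7.71 and Gnai1, the remaining Gi subunit, at 3.11 CPM per kb. No 2 neighbours in this order had overlapping ranges over the libraries. The place of Gnai3 above Gnao1 rests on the lengths, 3262 bases for Gnai3 and 11053 for Gnao1. In CPM, Gnao1 was above Gnai3 in every library. Gnai2 made up 76.4% ± 0.343 (SD, n = 4) of the summed level per kb of these 5 genes with the antagonist and 75.2% ± 1.04 (SD, n = 4) in the dual group, and Gnas 2.47% ± 0.0579 and 2.55% ± 0.212.

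The adenylyl cyclases were led by Adcy6, a cyclase inhibited by Gi and by calcium, at 11.8 CPM per kb, and by Adcy7, which Gβγ can stimulate, at 7.97. Adcy9 (5.62 CPM per kb), Adcy5 (5.03) and the calcium-stimulated Adcy8 (4.98) came next, with ranges that overlapped between neighbours. Adcy3 (2.12 CPM per kb) and Adcy2 (2.10) also overlapped, and Adcy1 stood at 0.728. Adcy4 was close to the limit of detection, with 8 to 19 counts per library. The summed level of the 9 cyclases was 40.1 CPM per kb ± 0.405 (SD, n = 4) with the antagonist and 40.7 ± 1.04 (SD, n = 4) in the dual group.

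Among the phosphodiesterases, Pde4b, a cAMP-specific enzyme, had the highest level at 18.4 CPM per kb, followed by the calcium- and calmodulin-activated Pde1b at 13.6 and Pde1a at 8.24. Pde4b made up 31.5% ± 0.615 (SD, n = 4) of the summed level per kb of the 14 genes with the antagonist and 30.2% ± 0.916 (SD, n = 4) in the dual group. Pde8a (4.29 CPM per kb) and Pde7a (4.02), both cAMP-specific, overlapped in range. Lower levels were read for the cGMP-inhibited Pde3b (2.54 CPM per kb) and Pde3a (1.497) and for Pde4a (1.85) and Pde10a (1.82). Pde8b, Pde4d and Pde7b lay at 1.18, 1.16 and 1.13 CPM per kb with overlapping ranges. Pde1c had 11 to 28 counts per library and Pde4c 0 to 3, so that nothing can be said of a difference in Pde4c at this depth.

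The level of the PKA subunits per kb depended on the gene lengths, 2488 bases for Prkaca and 8772 for Prkacb. Before division by length these genes were nearly level, with means of 127 and 119 CPM under the antagonist and 120 and 121 CPM in the dual group. Prkaca, the alpha catalytic subunit, stood at 49.6 CPM per kb and Prkacb, the beta form, at 13.7, so that on this scale Prkaca made up 78.9% ± 0.844 (SD, n = 4) and 77.9% ± 1.09 (SD, n = 4) of their sum in the A2A antagonist and dual groups. Of the regulatory subunits, Prkar1a reached 96.5 CPM per kb, against 14.3 for Prkar1b, 9.05 for Prkar2a and 3.10 for Prkar2b, and Prkar1b and Prkacb overlapped in range. The exons of Prkar1b overlap those of another gene on the same strand over 8.95% of their bases, which makes its count uncertain.

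Rapgef3, which encodes Epac1, stood at 6.58 CPM per kb and Rapgef4, which encodes Epac2, at 1.90. Of the transcription factors that bind the CRE, Atf1 (11.6 CPM per kb) was above Creb1 (4.57) and Crem (3.07), an order that rests on the length of 13742 bases for Creb1 against 3060 for Atf1, since in CPM Creb1 was above Atf1 in every library. The CREB coactivators followed the order Crtc2 (11.02 CPM per kb), Crtc3 (8.36) and Crtc1 (4.37), and the range of Creb1 overlapped that of Crtc1. This order also rests on the lengths, 4094 bases for Crtc2, 9850 for Crtc3 and 11182 for Crtc1. In mean CPM of either group, Crtc3 was the highest of them and Crtc2 the lowest. Beside Prkar1b, 11 further members share exon bases with a gene on the opposite strand, the largest shares being 22.1% in Adcy3 (Cenpo) and 22.0% in Gnas (Nespas and Gm20721). Whether the counting used strand, or kept reads that fall on several genes, was not stated, so such counts are uncertain.

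**Figure D1:**
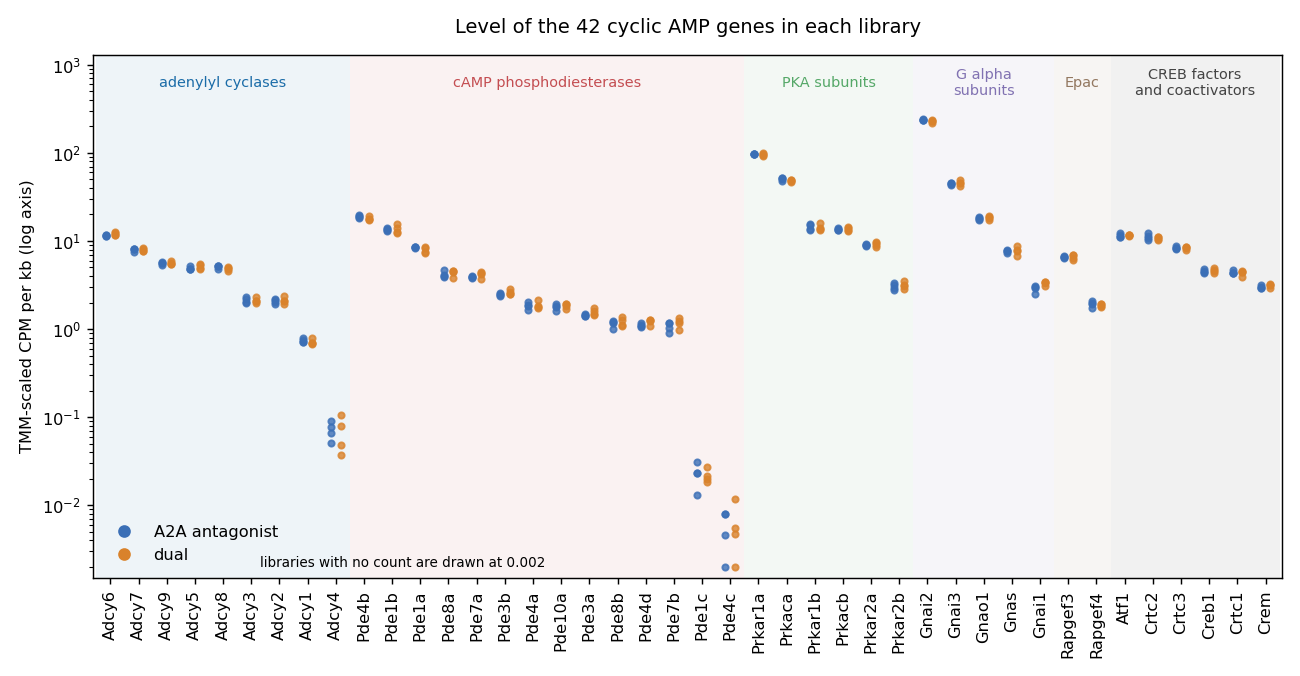
Level of each of the 42 genes in TMM-scaled CPM per kb on a log axis, grouped by role, with 1 point per library (blue, 4 A2A antagonist libraries; orange, 4 dual libraries). Gnai2 and Prkar1a stand highest, Adcy4, Pde1c and Pde4c lowest, and for each gene the colours lie close together compared with the distance between genes.

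The comparison of the dual with the A2A antagonist group asked whether adding the A3 receptor agonist changed the expression of this machinery. No member passed the test: 0 of 41 had an adjusted p under 0.05 in edgeR's quasi-likelihood test with Benjamini-Hochberg adjustment over all 18756 genes tested, of which 39 (0.208%) passed. DESeq2 called 0 of the 38 members to which it gave an adjusted p, against 3.37% of the 11313 genes given one. At an unadjusted p under 0.05 there were 3 members of 41 (7.32%), Gnai1 and Pde3a with higher and Prkaca with lower CPM in the dual group, against 12.8% of all genes. Leaving out 1 library changed this count of 3 to 0 without A2A antagonist replicate 4 and to 1 without A2A antagonist replicate 3 or dual replicate 3. It was 2 without A2A antagonist replicate 2 and 4 without dual replicate 2 or dual replicate 4. Without A2A antagonist replicate 1 or dual replicate 1 it was 5.

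Differences were small in both directions. The log2 fold change of the dual over the A2A antagonist group was positive for 25 members and negative for 16, with a median of 0.01 beside 0.00 for all genes tested. It ran from -0.10 for Adcy4 to 0.20 for Gnai1, and its median size without regard to sign was 0.05, beside 0.07 for all genes. The 95% interval lay within 1.5-fold in either direction for 39 of 41 members and within 1.2-fold for 35. The 2 with wider intervals than 1.5-fold were Adcy4 and Pde1c, which had few counts. Between replicates of a group, the coefficient of variation of the 39 members with at least 5 CPM was 0.647% to 12.9%, with a median of 4.71%, while counting error alone gave a median of 2.48%. Of the marker lists, 1 of 12 microglial genes was called, against 0.208% of all genes. It was C1qa, with a log2 fold change of -0.24 and an adjusted p of 0.0240 (edgeR, Benjamini-Hochberg). At an unadjusted p under 0.05, 5 of 10 fibroblast genes had higher CPM in the dual group, against 5.98% of all genes. At that threshold 3 of 12 microglial genes had lower and 1 higher CPM, against 6.81% and 5.98% of all genes. Of the 10 astrocyte genes 2 had higher and 1 lower CPM, and of the 10 oligodendrocyte genes 1 had higher and 1 lower CPM. All 6 mural genes tested had a positive log2 fold change, as had 9664 of all 18756 genes tested. That of 8 of the 10 oligodendrocyte genes was negative. The part of these markers in the values of the members was not tested.

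**Figure D2:**
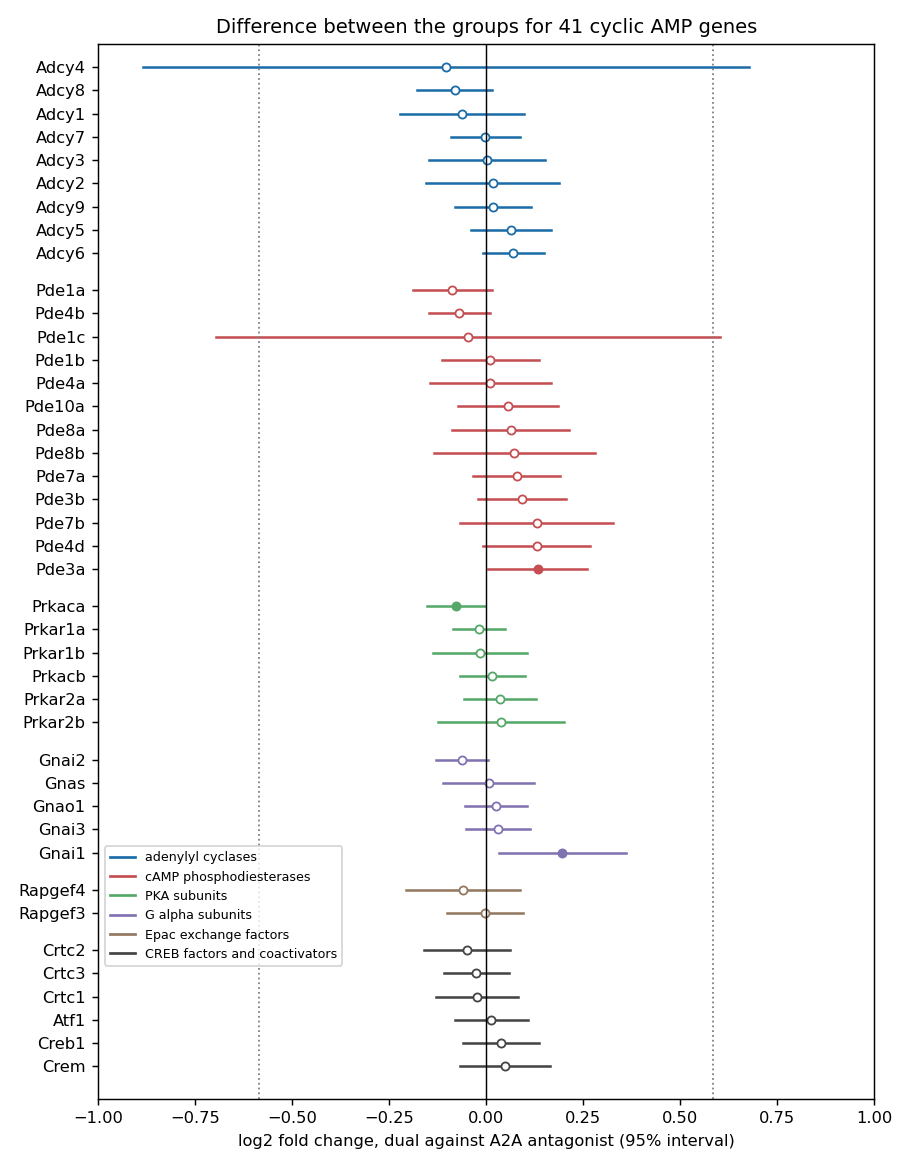
Log2 fold change of the dual over the A2A antagonist group with its 95% interval from the edgeR fit, for the 41 members tested, by role. Filled points have an unadjusted p under 0.05 (Gnai1, Pde3a and Prkaca), the dotted lines mark 1.5-fold, and 38 of 41 intervals hold 0.

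By role, the log2 fold changes of the 9 cyclases had a median of 0.00, with 5 positive and 4 negative. For the 13 phosphodiesterases tested the median was 0.06, with 10 positive, Pde1a, Pde1c and Pde4b being the exceptions, and 1 at an unadjusted p under 0.05. The 6 PKA subunits had a median of 0.00, the 5 alpha subunits of 0.03, the 2 Epac genes of -0.03 and the 6 CREB factors and coactivators of -0.01. In none of these groups did a member pass the adjusted threshold, and the smallest adjusted p of the CREB group was 0.755 (edgeR, Benjamini-Hochberg).

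Gnai1 (ENSMUSG00000057614, chr5:18265135-18360355, minus strand, GRCm38) is the Gi alpha subunit with the lowest level in these cultures. Its CPM was 9.77, 9.19, 9.52 and 7.90 in A2A antagonist replicates 1 to 4 and 9.78, 10.7, 10.6 and 10.5 in dual replicates 1 to 4. The groups did not overlap, though dual replicate 1 and A2A antagonist replicate 1 were almost level. The log2 fold change of 0.20 (SE 0.08) had an adjusted p of 0.290 in edgeR's quasi-likelihood test and p = 0.0286 in the two-sided exact permutation test, the smallest that 4 against 4 libraries allow. Of the 41 members, 2 had groups without overlap, Gnai1 and Adcy6, against 7.42% of all genes tested.

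Gnai2, the dominant Gi alpha subunit, had 882, 909, 905 and 899 CPM in the A2A antagonist libraries and 897, 861, 864 and 820 CPM in the dual libraries. Dual replicates 2 to 4 were below all A2A antagonist libraries, and dual replicate 1 was among them. The log2 fold change of -0.06 (SE 0.03) had an adjusted p of 0.421 (edgeR, Benjamini-Hochberg).

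Pde3a (ENSMUSG00000041741, chr6:141249269-141507448, plus strand), a phosphodiesterase inhibited by cGMP, had 18.3, 18.7, 17.8 and 18.0 CPM in the A2A antagonist libraries and 18.9, 18.3, 20.4 and 22.0 CPM in the dual libraries. The higher mean of the dual group came from its replicates 3 and 4, and its replicate 2 lay within the range of the antagonist. The log2 fold change of 0.13 (SE 0.06) had an adjusted p of 0.367 (edgeR, Benjamini-Hochberg) and an exact permutation p of 0.0571.

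Prkaca (ENSMUSG00000005469, chr8:83972993-83996443, plus strand) had 121, 130, 126 and 130 CPM in the A2A antagonist libraries and 122, 123, 118 and 118 CPM in the dual libraries. The groups overlapped through A2A antagonist replicate 1. The log2 fold change of -0.08 (SE 0.04) had an adjusted p of 0.369 (edgeR, Benjamini-Hochberg) and an exact permutation p of 0.0857. Prkar1a, the regulatory subunit RIα, had 416, 419, 423 and 420 CPM with the antagonist and 397, 411, 415 and 434 CPM in the dual group. The dual libraries spread to both sides of the antagonist libraries, and the log2 fold change of -0.02 (SE 0.03) had an adjusted p of 0.868 (edgeR, Benjamini-Hochberg).

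Adcy6 had 78.9, 78.4, 77.4 and 77.4 CPM in the A2A antagonist libraries and 83.7, 85.6, 79.3 and 79.1 CPM in the dual libraries. The dual libraries lay above the antagonist libraries, replicates 3 and 4 by less than the difference among the dual libraries themselves. The log2 fold change of 0.07 (SE 0.04) had an adjusted p of 0.453 (edgeR, Benjamini-Hochberg) and an exact permutation p of 0.0286. Adcy8 (ENSMUSG00000022376, chr15:64697084-64922296, minus strand), a cyclase stimulated by calcium and calmodulin, had 38.8, 42.5, 42.9 and 42.9 CPM with the antagonist and 37.3, 40.1, 41.0 and 39.4 CPM in the dual group. A2A antagonist replicate 1 lay among the dual libraries, and the log2 fold change of -0.08 (SE 0.05) had an adjusted p of 0.483 (edgeR, Benjamini-Hochberg).

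Pde4b had 191, 197, 209 and 202 CPM with the antagonist and 190, 183, 186 and 202 CPM in the dual group, and the groups overlapped. Its log2 fold change of -0.07 (SE 0.04) had an adjusted p of 0.466 (edgeR, Benjamini-Hochberg). Pde7b (ENSMUSG00000019990, chr10:20398004-20725078, minus strand), a cAMP-specific phosphodiesterase, had 14.8, 14.8, 12.9 and 11.2 CPM with the antagonist and 15.2, 12.3, 16.5 and 14.5 CPM in the dual group. With the antagonist its coefficient of variation was the widest of the 39 members, 12.9%, and the log2 fold change of 0.13 (SE 0.09) had an adjusted p of 0.605 (edgeR, Benjamini-Hochberg). Pde8a, a high-affinity cAMP phosphodiesterase, had 15.9, 16.4, 19.2 and 16.4 CPM with the antagonist and 18.1, 15.5, 18.7 and 18.5 CPM in the dual group. The lowest library was a dual one and the highest an antagonist one, with a log2 fold change of 0.06 (SE 0.07).

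Rapgef3 had 43.0, 41.6, 40.6 and 41.8 CPM with the antagonist and 43.6, 43.7, 41.1 and 38.2 CPM in the dual group, with a log2 fold change of 0.00 (SE 0.05). Atf1, a CRE-binding factor related to CREB, had 33.6, 35.8, 37.8 and 33.9 CPM with the antagonist and 35.8, 35.2, 35.8 and 35.7 CPM in the dual group. The dual libraries of Atf1 were nearly level and lay inside the range of the antagonist libraries, and the log2 fold change was 0.01 (SE 0.05).

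**Figure D3:**
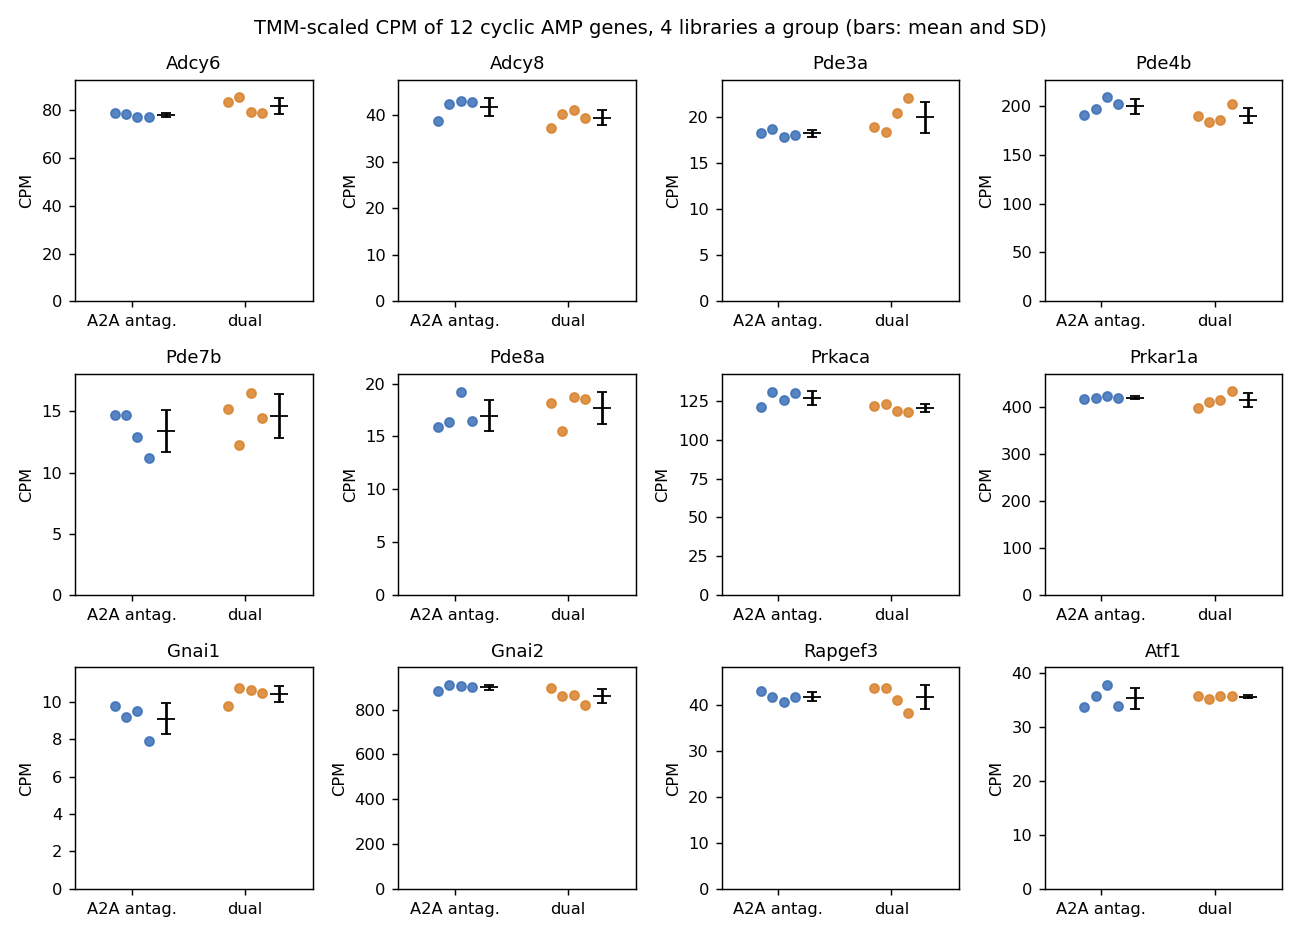
TMM-scaled CPM of 12 members in each library (blue, A2A antagonist; orange, dual), with the mean and SD of the 4 libraries of each group as a bar to the right, all axes starting at 0. Of these 12, only Gnai1 and Adcy6 have groups that not overlap, and in each panel the difference of the means is small beside the level.

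A second table set the A2A antagonist group beside an activated vehicle control. The libraries behind that control lie outside this series. The part of a difference between the sets of libraries in the ratios to this control was not tested. Here only the authors' mean of each group was used, in normalised counts, so no error, number of replicates or test is given, and genes whose larger mean reached 50 were compared. Of 39 members, 4 were past 1.5-fold (10.3%), against 9.82% of all 15126 genes. Adcy8 was the 1 member past 1.5-fold higher with the antagonist (2.44% of all genes were), and Pde7b, Gnai1 and Pde8a were the 3 past 1.5-fold lower (7.38% of all genes). The median log2 ratio of the 39 members was -0.04, beside 0.03 for all genes, and 17 members had the higher mean with the antagonist and 22 the lower one.

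Adcy8 had an authors' mean of 1801 with the antagonist and 931 in the control, a log2 ratio of 0.95. Of the other cyclases, Adcy1 (-0.53) and Adcy5 (-0.46) had the lowest log2 ratios, and the most abundant, Adcy6, stood at -0.20. The calcium-stimulated Adcy8 and Adcy1 thus lay on opposite sides of the control.

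Pde7b had the largest ratio of the members, with an authors' mean of 577 against 1773 in the control (log2 ratio -1.62). Pde8a was at 732 against 1108 (-0.60), just past 1.5-fold, and Pde3a at 785 against 1153 (-0.56), just within it. Of the 12 phosphodiesterases compared, 9 were lower with the antagonist, with a median log2 ratio of -0.16, while the most abundant, Pde4b, was higher at 0.29.

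Gnai1 had an authors' mean of 392 with the antagonist and 652 in the control (log2 ratio -0.73), whereas Gnai2, Gnao1 and Gnas had log2 ratios of 0.24, 0.26 and 0.19 and Gnai3 one of -0.07. The difference of Gnai1 between the dual and the A2A antagonist group, 0.20, is measured against the same antagonist libraries, so the pair of values is not independent. The PKA subunits ran from -0.15 for Prkar2a to 0.36 for Prkar1b, with Prkar1a at -0.01. Rapgef3 and Rapgef4 had log2 ratios of 0.42 and 0.23, and the CREB factors and coactivators lay between -0.19 (Crem) and 0.22 (Crtc1).

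Markers of other cells differed in the same table. Of the 10 fibroblast markers, 9 were past 1.5-fold lower with the antagonist, with a median log2 ratio of -1.71, and of the 4 mural cell markers compared, 3 were past 1.5-fold lower, with a median of -0.76. The medians of the 12 microglial, 10 astrocyte and 10 oligodendrocyte markers were 0.08, 0.19 and 0.32. Of these, 3 astrocyte markers, Aqp4, Slc1a3 and Aldh1l1, were past 1.5-fold higher and 1 past 1.5-fold lower. In addition, 1 microglial marker was past 1.5-fold lower and 1 oligodendrocyte marker past 1.5-fold higher. The 5 endothelial markers had a median of -0.58 with 2 past 1.5-fold lower, and of 5 neuron markers 1 was past 1.5-fold higher and 1 lower. The part of the cell makeup in the ratios of Adcy8, Pde7b, Pde8a and Gnai1 was not tested.

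**Figure D4:**
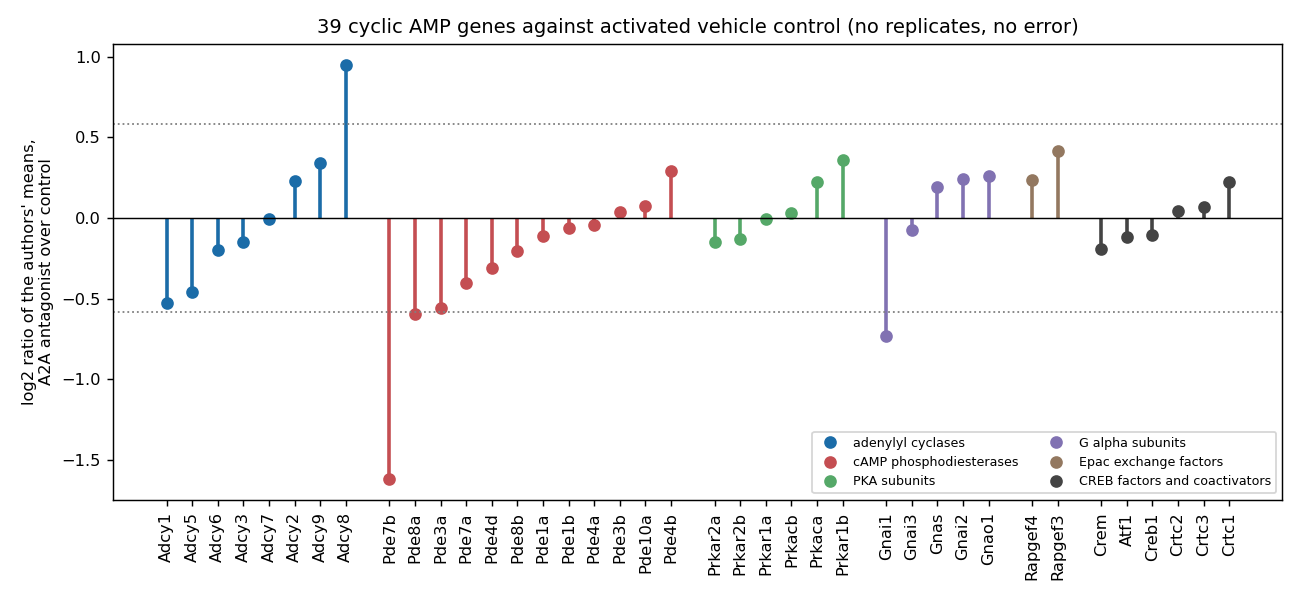
Log2 ratio of the authors' mean of the A2A antagonist group over that of the activated vehicle control for the 39 members whose larger mean reached 50, by role, with no error because only means were used. The libraries of the control lie outside this series. The dotted lines mark 1.5-fold, which Adcy8 passes upward and Pde7b, Gnai1 and Pde8a pass downward.

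The other genes of the pathway were taken from 11 lists of 124 genes, of which 122 were listed and 104 tested. These lists were chosen with earlier results of these data known. Between the dual and the A2A antagonist group, 0 of the 104 had an adjusted p under 0.05 (edgeR, Benjamini-Hochberg). DESeq2 called 3 pathway genes, beside 3.37% of the 11313 genes to which it gave an adjusted p. How many pathway genes were given one was not counted. The 3 were Akap9, Ep300 and Gng5, named here after their values were seen. At an unadjusted p under 0.05, 14 had higher and 6 lower CPM in the dual group, against 5.98% and 6.81% of all genes. Of the 14 A-kinase anchoring proteins tested, which tether PKA to cell structures, 7 were among the 14, and the median log2 fold change of the list was 0.12. Akap9 had the smallest adjusted p of the 104, at 0.0606 (edgeR, Benjamini-Hochberg), at 103 CPM ± 4.87 (SD, n = 4) under the antagonist and 116 ± 1.87 (SD, n = 4) in the dual group. Akap9 was called by edgeR without A2A antagonist replicate 1 (adjusted p = 0.0177) and with no filter on low counts (adjusted p = 0.0133).

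The 16 CREB target genes tested were mostly immediate early genes. Their median log2 fold change in the dual group was 0.11, beside 0.00 for all genes tested. Of these 16, 14 were positive, as were 9664 of all 18756 genes tested. At an unadjusted p under 0.05, 5 had higher CPM in the dual group, against 5.98% of all genes, and 0 passed the adjusted test. Nr4a1, an orphan nuclear receptor, had 21.3, 24.0, 12.2 and 10.96 CPM with the antagonist and 25.0, 22.3, 28.1 and 21.8 CPM in the dual group. Its antagonist libraries fell into a higher and a lower pair, of which the higher overlapped the dual libraries. Egr1, a zinc finger factor, had 171, 184, 126 and 130 CPM with the antagonist and 201, 175, 196 and 170 CPM in the dual group, with the same libraries low. Their log2 fold changes were 0.51 (SE 0.17) and 0.28 (SE 0.09), with adjusted p of 0.205 and 0.192 (edgeR, Benjamini-Hochberg). With no filter on low counts, the adjusted p of edgeR (Benjamini-Hochberg) were 0.00163 for Nr4a1 and 0.00224 for Egr1. That setting called 366 genes over all genes, in place of 39, so these calls rest on a change of the whole fit. DESeq2 called neither gene.

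In the authors' means, 8 of the 15 CREB target genes compared were past 1.5-fold lower with the antagonist than in the control and 0 past 1.5-fold higher, against 7.38% and 2.44% of all genes, with a median log2 ratio of -0.79. Because this list was chosen with earlier results of these data known, its shares are a description and no test. The 8 were Nr4a1 (738 against 2319), Nr4a2, Fosb, Egr1 (6584 against 14168), Bdnf, Fos (4269 against 8091), Dusp1 and Ier2. Junb, at 17023 against 16859, and Ppargc1a, at 923 against 831, did not share this direction. Many of these genes also respond to other stimuli, including serum and stress, and the table holds no measure of cAMP. The part of the lower fibroblast and mural markers in their ratios was not tested.

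Of the remaining lists, the 12 anchoring proteins compared had a median log2 ratio of -0.21 against the control, with Akap12 at -1.53. Among phosphodiesterases outside the members, the cGMP-specific Pde5a had a log2 ratio of -1.98. Of the receptors coupled to Gs, 3 of 11 were past 1.5-fold lower, and of those coupled to Gi 2 of 10, Adra2a at -0.86 and Ptger3 at -0.75, against 7.38% of all genes. The 3 coupled to Gs were the prostaglandin receptor gene Ptgdr at -1.71, the peptide receptor gene Vipr2 at -0.90 and the adenosine receptor gene Adora2b at -0.62. Adora2a, the target of SCH 58261, was measured at 6.09 CPM ± 0.635 (SD, n = 4) under the antagonist and at 4.71 CPM ± 0.483 (SD, n = 4) in the dual group, a log2 fold change of -0.36 (SE 0.10) with an adjusted p of 0.144 (edgeR, Benjamini-Hochberg).

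**Figure D5:**
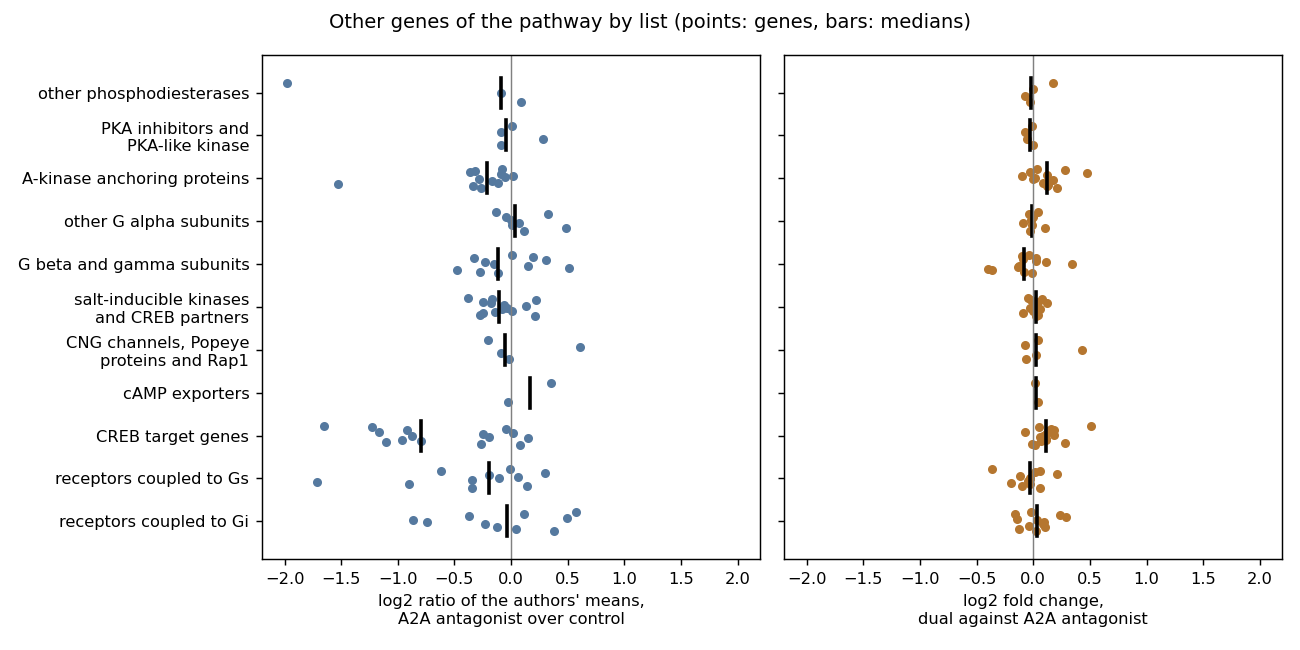
Log2 ratios of the other pathway genes by list, on the left the authors' means of the A2A antagonist group over the control and on the right the dual over the A2A antagonist group (points, genes; black bars, list medians). The CREB target genes have the lowest median on the left (-0.79) and one of 0.11 on the right, and the antagonist libraries enter both panels. The lists were chosen with earlier results of these data known.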

How the data were processed

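RNA was sequenced in 8 libraries of cultured microglia, and the authors aligned the reads to an Ensembl mouse genome (mm10) with HISAT2 and counted reads per gene with featureCounts 1.5.0-p3. The deposited counts are raw, with no pooling of replicates. The authors' means of the second deposited table are a signal in normalised counts, averaged over a group. Each table also holds the authors' own comparison (log2 fold change, p-value and its adjusted value), which were not used, and 9 per-library columns of 3 control libraries were not used either.

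Total counts per library ranged from 32630602 to 45878639. Counts were filtered with filterByExpr (minimum count 10), scaled with TMM factors and fitted with edgeR 4.0.16 in R 4.3.3 (glmQLFit and glmQLFTest, no covariates). The two-sided p-values received a Benjamini-Hochberg adjustment over all genes tested, with a threshold of 0.05. The scripts were tested on simulated data. For single members, an exact permutation test (two-sided) ran over the 70 arrangements of the libraries. CPM per kb used the gene length of the deposited table. Gene coordinates of all 42 members equalled those of GENCODE release M21 (GRCm38).

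Values in every library are given for members called, members at an unadjusted p under 0.05, the most abundant member per kb of each role and members past 1.5-fold in the authors' means. The members and lists were chosen with earlier results of these data known. Alternatives were DESeq2 1.42.0, its size factors within edgeR, no low-count filter, a replicate block, each library left out, and another minimum, centring and pseudocount for the authors' means.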

Additional observations from a re-analysis of the deposited data

Results flagged for a closer look

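In each group of 4 libraries, a library was picked out where its distance to the nearest other library, as a share of the range of the group, passed the 95% critical value of Dixon's test. Chance picks out about 1 in 20 groups, and 6 of the 82 member and group sets searched were picked out. In the A2A antagonist group, Adcy7 had 51.1 CPM in replicate 2 beside 54.3 to 54.8 CPM in the other libraries, Adcy8 had 38.8 CPM in replicate 1 beside 42.5 to 42.9, Pde8a had 19.2 CPM in replicate 3 beside 15.9 to 16.4, and Crtc1 had 52.8 CPM in replicate 2 beside 47.8 to 48.5. In the dual group, Adcy1 had 9.93 CPM in replicate 1 beside 8.45 to 8.68, and Atf1 had 35.2 CPM in replicate 2 beside 35.7 to 35.8.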

How the results depend on the processing

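No member was called under any of the 13 settings run, that is the main analysis, DESeq2, DESeq2 size factors, no low-count filter, a replicate block and each of 8 libraries left out. The count of all genes called, 39 in the main analysis, was 381 with DESeq2, 366 with no low-count filter and 17 with the replicate block, and ran from 0 to 172 with 1 library left out. It was 0 without A2A antagonist replicate 4 or dual replicate 3 and 172 without A2A antagonist replicate 1. The count of other pathway genes called, 0 in the main analysis, was 3 with DESeq2, 3 with no low-count filter and 0 to 1 with 1 library left out. Of 144 alternative log2 fold changes of the 12 members described by library, 139 kept their sign. The 5 others came from leaving out 1 library, with ranges of -0.0415 to 0.000791 for Prkar1a, -0.0285 to 0.0359 for Rapgef3 and -0.00916 to 0.0469 for Atf1. With 1 library left out, the log2 fold change ran from 0.05 to 0.20 for Pde7b, from 0.03 to 0.12 for Pde8a and from 0.08 to 0.17 for Pde3a, none of them called. The samples share replicate numbers, but same-numbered libraries deviated together with correlations of only -0.05 to 0.04. No same-numbered libraries were each other's best match. With so few libraries this check cannot decide whether same-numbered libraries shared a culture or batch. With the replicate block, 1 member, Gnai1, had an unadjusted p under 0.05, against 3 without it, with an adjusted p of 0.413 (edgeR, Benjamini-Hochberg). For the authors' means, the share of all genes past 1.5-fold was 16.8% with a minimum of 10 in place of 50, and 4 members, in place of 3, were then past 1.5-fold lower. The causes were not tested. Depth limits Adcy4, Pde1c and Pde4c.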
